A study of Capra hircus with 2 samples.

Results

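The cells described here were the contractile cells of goat skin, with 70 members among the 13051 kept cells of 2 single-cell libraries. Members were chosen by measured values. Each had at least 3 unique molecular identifiers (UMIs, counted RNA molecules) of ACTA2, ACTG2, MYH11 and CNN1 together, and at least 5 per 10000 of its UMIs. Each also had COL1A1, COL1A2 and COL3A1 under 50 per 10000 and fewer than 3 UMIs of PECAM1, PLVAP and VWF. Members with KRT14 and KRT5 at 50 per 10000 or more are called epithelial, and the others non-epithelial. The working name was contractile muscle and myoepithelial-like cells.

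Contractile cells of skin include the vascular smooth muscle and pericytes around vessels, the arrector pili muscle attached to hair follicles, and the myoepithelial cells that wrap gland secretory units. All use smooth muscle actins, a smooth muscle myosin heavy chain and their regulators, with calcium and myosin light chain phosphorylation driving the contraction. Myoepithelial cells differ from muscle in being epithelial, so they carry the basal keratins KRT5 and KRT14 beside the contractile genes. KRT8 is a keratin of simple and glandular epithelium.

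Skin came from the scapular region of healthy Liaoning cashmere goats (Capra hircus) in anagen, the growth phase of the hair cycle, with 1 library from a goat of coarse fibre type (CT-LCG) and another from a goat of fine fibre type (FT-LCG). The study asked which skin cell types and genes go with the fineness of cashmere, the fibre made by secondary hair follicles. No age, genotype or treatment was given, and the fibre type came from the deposited table of kept cells. With 1 library per type, the type, the goat, the dissociation and the sequencing depth cannot be told apart, and no test between types was made.

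CT-LCG held 19 members of 3443 kept cells (0.552%, 95% Clopper-Pearson interval 0.333 to 0.860) and FT-LCG 51 of 9608 (0.531%, 0.395 to 0.697). The epithelial members numbered 9 from CT-LCG (0.261%, 0.120 to 0.496) and 25 from FT-LCG (0.260%, 0.168 to 0.384). The non-epithelial members numbered 10 (0.290%, 0.139 to 0.533) and 26 (0.271%, 0.177 to 0.396). The intervals of the 2 libraries overlapped for each of these shares. These intervals and those below cover counting error only. Of the 11 kept barcodes that both libraries shared, 0 belonged to a member.

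Depth differed between the libraries. The median CT-LCG member had 1353 UMIs (866 to 15251) and the median FT-LCG member 6296 (680 to 20256), against 2314 and 6121.5 in all kept cells. The members' summed depth was 54368 and 362964 UMIs. A single CT-LCG cell of 15251 UMIs held 61.4% of the UMIs of the epithelial CT-LCG members, so values of that subset lean on 1 cell. This cell passed the rule with 8 UMIs of CNN1 and had 0 of ACTA2, ACTG2, MYH11, TAGLN, MYL9 and TPM2. It held 137 UMIs each of KRT5 and CRYAB and 37 of EGR4.

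The rule left out many cells with few contractile UMIs. At least 1 UMI of the 4 contractile genes was present in 130 CT-LCG and 759 FT-LCG kept cells, and at least 3 in 24 and 105. The limit of 5 per 10000 then left out 4 and 54 cells, whose median depths were 19134.5 and 23799.5 UMIs, and the collagen limit left out 1 further CT-LCG cell. The lowest members held 5.25 and 5.37 contractile UMIs per 10000, and the nearest cells outside held 4.61 and 4.40. Across the keratin split, the nearest epithelial members held 51.2 and 52.8 per 10000 and the nearest non-epithelial ones 44.7 and 49.7. The split cut a continuous range, with 4 CT-LCG and 11 FT-LCG members within 10 per 10000 of it. Keratin at that level was also present in cells selected by endothelial genes, 6 of 44 (13.6%) from CT-LCG and 30 of 142 (21.1%) from FT-LCG, and the part of free RNA in the split was not tested.

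**Figure D1:**
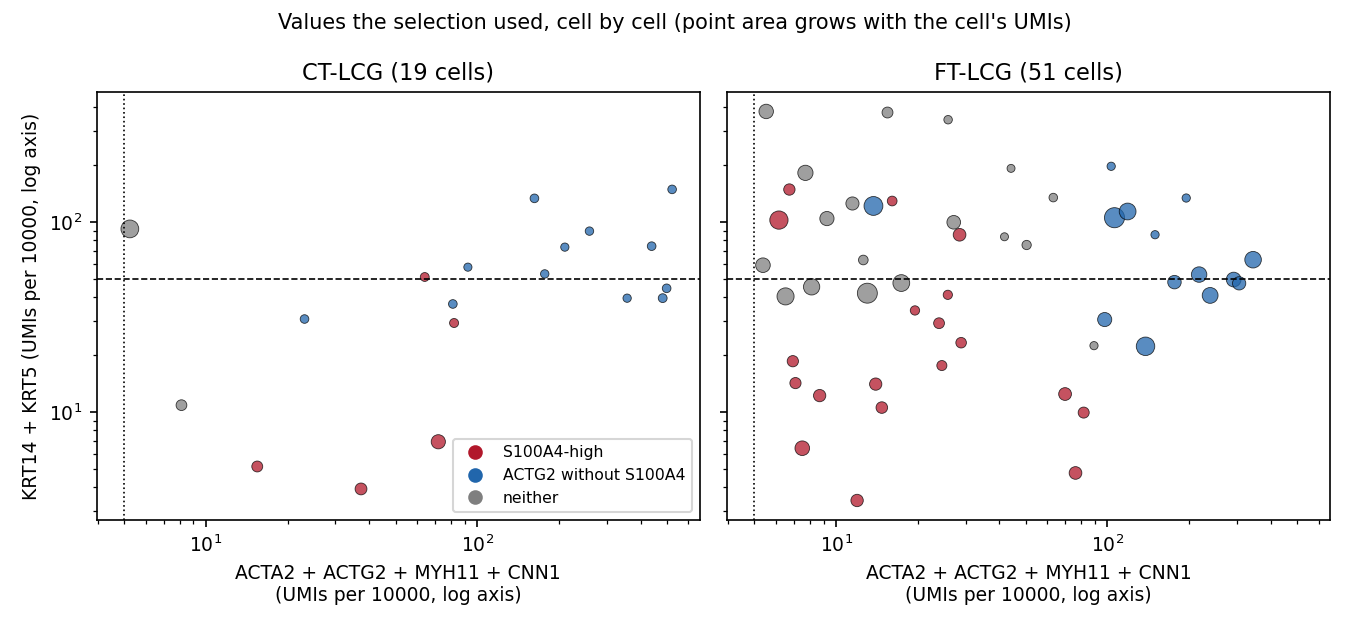
Each point is 1 member, with its summed ACTA2, ACTG2, MYH11 and CNN1 (UMIs per 10000, x axis) against its summed KRT14 and KRT5 (UMIs per 10000, y axis), both on log axes, with colours for the groups described below, point area growing with the cell's UMIs, and lines at the limits of 5 and 50 per 10000. Members lie on both sides of the keratin limit in both libraries without a gap there.

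The label was set beside genes that the rule did not read. TAGLN, the actin-binding transgelin of smooth muscle, had a UMI in 17 of 19 CT-LCG and 48 of 51 FT-LCG members (89.5% and 94.1%), against 13.6% and 8.45% of the endothelial-selected cells. With every cell thinned to 1000 UMIs, which left 17 and 45 members and 38 and 132 endothelial-selected cells, the shares were 76.5% and 86.7% in members and 5.26% and 2.27% in endothelial-selected cells, whose median depths before thinning were 3116.5 and 3411.5 UMIs. TAGLN, MYL9 and TPM2, the last being a tropomyosin, were all detected in 49 of the 70 members, and none of them in 2. In the 20 members described below as remaining, all 3 were detected in 6. The endothelial-selected cells held under 3 UMIs of the 4 rule genes by choice, so the gap to them is a description. The name contractile thus went with all 3 genes in most members, but not in most of the remaining ones.

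The glandular part of the label was met unevenly. KRT8 had a UMI in 4 of 19 CT-LCG members (21.1%) and 26 of 51 FT-LCG members (51.0%), against 2.27% and 3.52% of endothelial-selected cells. After thinning to 1000 UMIs the shares were 17.6% and 33.3% in members, against 2.63% and 0.758%. OXTR, the oxytocin receptor of mammary myoepithelium, had 1 UMI in all members. KRT15 and KRT17 had no feature of those names in the matrix.

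The 4 genes of the rule were not found together in every member. All 4 were detected in 21 members, 3 in 18, 2 in 10 and 1 in 21, of which 16 had ACTA2 alone. Levels below are UMIs of a gene summed over the cells of a group, per 10000 of their UMIs, with exact 95% Poisson intervals where a range is given. ACTA2, the actin of vascular smooth muscle, was at 28.2 (22.0 to 35.6; 72.9 without the deep cell) in epithelial CT-LCG and 20.0 (17.9 to 22.2) in epithelial FT-LCG members, and at 44.4 (37.1 to 52.7) and 31.9 in the non-epithelial ones. ACTG2, the enteric smooth muscle actin, was at 46.3 (119.7 without the deep cell) and 22.0 in the epithelial members and 33.2 and 14.3 in the non-epithelial ones. Without that cell the CT-LCG order of ACTA2 between the subsets turned. ACTA2 and ACTG2 code for nearly identical proteins, and how reads common to such a pair were counted was not given, so their separate levels are uncertain.

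MYH11, the smooth muscle myosin heavy chain, was at 6.84 in CT-LCG epithelial members (17.7 without the deep cell), against 14.2 in FT-LCG ones, and at 10.5 and 19.3 in non-epithelial members. For the epithelial members without that cell, the CT-LCG interval of MYH11, 10.3 to 28.3, held the FT-LCG level, so no order can be told there. Of these 17 CT-LCG UMIs, 10 were in 1 other cell. CNN1, the actin-binding calponin, was at 16.5 (34.4 without the deep cell) and 16.4, and at 11.5 and 12.3. Since the rule read these 4 genes, their height above other kept cells is not a result. KRT8, which the rule did not read, was at 2.41 (0.886 to 5.25) in CT-LCG and 13.1 (11.4 to 14.9) in FT-LCG epithelial members, against 0.0984 and 0.152 in all other kept cells. Without the deep cell the CT-LCG level was 6.25 (2.29 to 13.6), an interval that overlapped the FT-LCG one. In non-epithelial members it was at 0 (0 to 1.25) for CT-LCG and 6.0 for FT-LCG.

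**Figure D2:**
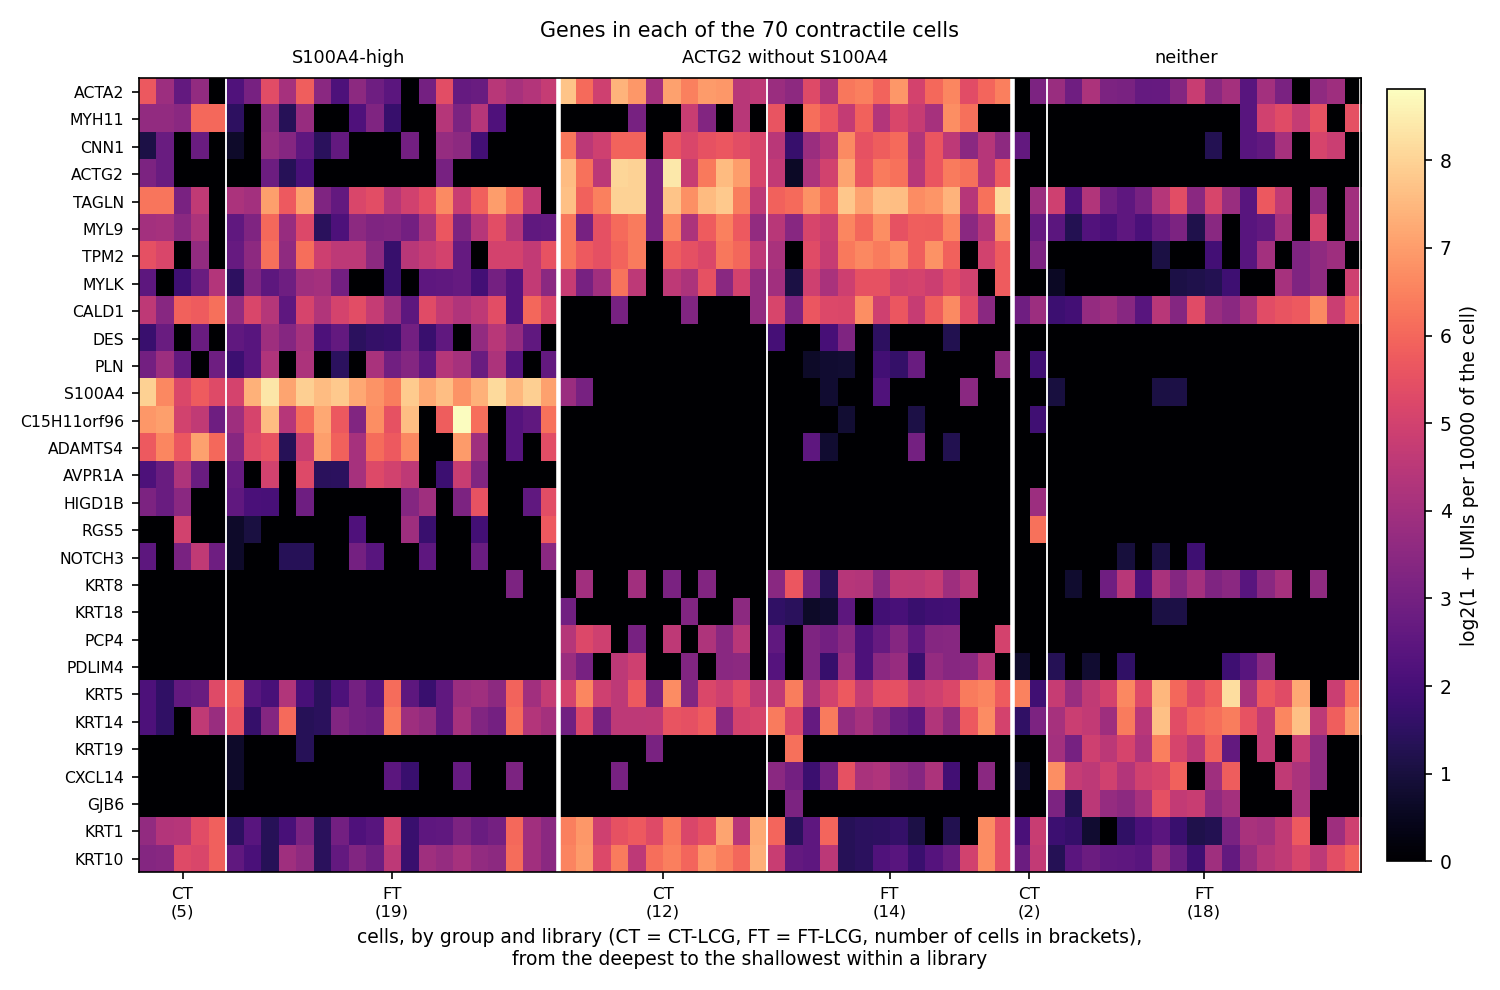
Each column is 1 member and each row a gene, coloured by log2 of 1 plus its UMIs per 10000, with cells ordered by group, then library, then from the deepest to the shallowest. S100A4 marks the 5 and 19 cells on the left, ACTG2 the 12 and 14 in the middle, and KRT19 is present in 14 of the 18 FT-LCG cells on the right.

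Within the members, 2 partly overlapping patterns were seen, led by S100A4 and by ACTG2. S100A4 codes for a calcium-binding protein that is high in mesenchymal cells. The groups below were cut after these values had been seen and are descriptions, not cell types. S100A4 was at 0 in 38 of the 70 members, and no member lay between 13.2 and 32.6 per 10000, so a limit of 20 was used. Members at or above it were 5 from CT-LCG and 19 from FT-LCG, of which 1 and 4 were epithelial by the keratin split. Members below it with at least 1 UMI of ACTG2 were 12 and 14, of which 7 and 8 were epithelial. The remaining members, below the limit of S100A4 and with 0 UMIs of ACTG2 (neither in the plots), were 2 and 18, of which 1 and 13 were epithelial. ACTG2 had a UMI in 2 of the 5 and 4 of the 19 S100A4-high members, and S100A4 had one in 2 of the 12 and 3 of the 14 ACTG2 members. Of the remaining members, 3 of the 18 FT-LCG cells held 1 or 2 UMIs of S100A4. Between 10 and 40 per 10000 of S100A4 lay 5 cells.

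**Figure D3:**
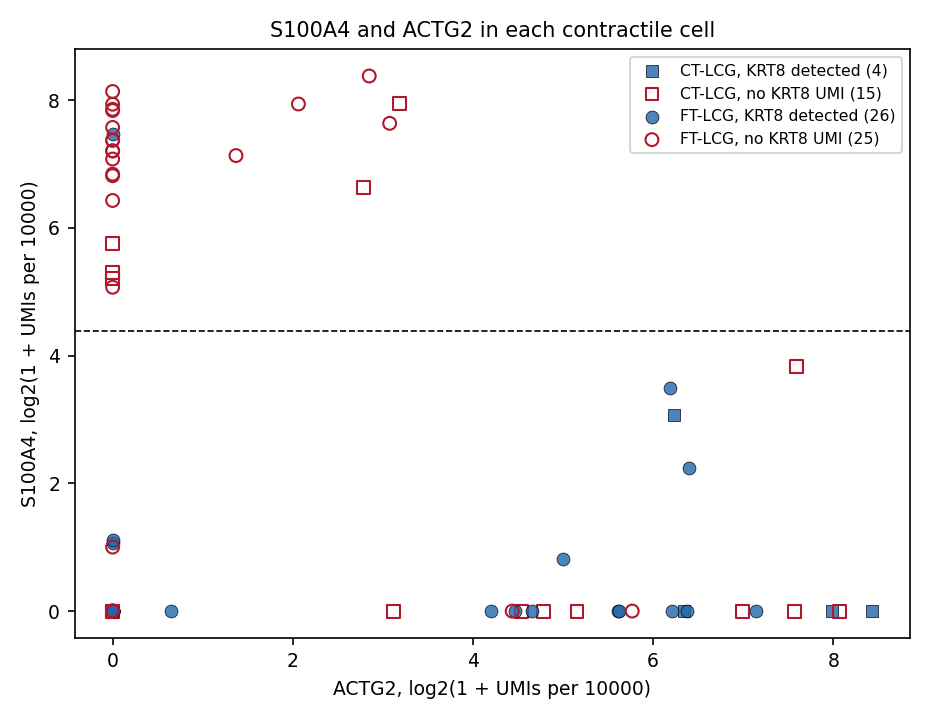
Each point is 1 member, with its ACTG2 on the x axis and its S100A4 on the y axis, both as log2 of 1 plus UMIs per 10000 (squares CT-LCG, circles FT-LCG, filled where KRT8 was detected), and the dashed line marks 20 per 10000 of S100A4. All but 1 of the 24 members above the line had no KRT8 UMI, and points at 0 for both genes overlap.

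The S100A4-high members held some genes of vascular muscle and pericytes. RGS5, a regulator of G protein signalling and a pericyte marker, was at 5.75 and 2.19 in S100A4-high members of CT-LCG and FT-LCG, and at 0 in the ACTG2 members of both libraries. NOTCH3, the Notch receptor of vascular muscle, was at 5.75 and 1.5, and HIGD1B, a pericyte marker, at 6.71 and 5.48, again with both at 0 in the ACTG2 members. AVPR1A, the vasopressin receptor through which vessels contract, was at 6.71 and 12, against 0 and 0. It had a UMI in 4 of 5 and 12 of 19 S100A4-high members, and RGS5 in 1 of 5 and 7 of 19, so RGS5 was not general among them. Other genes of the pericyte and mural list were sparse over all members. PDGFRB was at 0.767 in CT-LCG members without the deep cell and 0.0827 in FT-LCG members. In the same cells KCNJ8 was at 0 and 0.0551, and ABCC9 at 1.53 and 0.

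PLN and DES were also higher there. Of the contraction control list 2 of 5 compared genes were at least 2-fold lower and 1 higher in the ACTG2 members of both libraries, against 9.13% lower and 6.79% higher of all 1753 genes compared. PLN, the phospholamban that restrains the calcium pump, was at 7.67 for CT-LCG and 7.18 for FT-LCG, against 0 and 1.01 in the ACTG2 members. DES, the muscle intermediate filament desmin, was at 2.88 and 6.48, against 0 and 1.74. DES had a UMI in 3 of 5 and 17 of 19 S100A4-high members, and in 0 of 12 and 5 of 14 ACTG2 members. Among endothelial-selected cells, DES had a UMI in 0 of 44 and 1 of 142.

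ADAMTS4, C15H11orf96 and WFDC1 had the same order in both libraries. ADAMTS4, a protease that cleaves aggrecan, was at 70.0 and 37.5 in S100A4-high members of CT-LCG and FT-LCG, against 0 and 1.16 in the ACTG2 members. C15H11orf96, whose product is little described, was at 89.1 and 73.3, against 0 and 0.145. WFDC1, a secreted protein with a whey acidic protein domain, was at 11 and 11.7, against 0 and 0. MGP, the matrix Gla protein that inhibits calcification, was at 109 and 49.1 in S100A4-high members, and at 6.87 and 47.7 in ACTG2 members, so it separated the groups for CT-LCG but not for FT-LCG. APOE, a lipid carrier, was at 10.1 and 66.1 in S100A4-high members of CT-LCG and FT-LCG.

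Some of these genes were also held by fibroblasts. In cells selected by collagen, S100A4 was at 218 and 136 and MGP at 96.8 and 39.4, while DES was at 0 and 0.0719, PLN at 0 and 0, and AVPR1A at 0 and 0.144. EBF1 and NR2F2, transcription factors found in mural and venous cells, were also measured in S100A4-high members, EBF1 at 3.35 and 2.19 and NR2F2 at 2.88 and 6.58. NR2F2 was at 1.94 and 1.90 in endothelial-selected cells.

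The ACTG2 members had higher levels of TAGLN and of the myosin regulators than the S100A4-high members. All 4 rule genes were detected in 15 of the 26 and 3 of them in 10, a description only, since ACTG2 set this group. TAGLN had a UMI in each of the 26. Its UMIs per cell ran from 1 to 34 (median 16.5) in CT-LCG and from 2 to 286 (median 118) in FT-LCG, cells of which were deeper. As a level it was at 146 and 122, against 53.7 and 45.7 in S100A4-high members. TPM2 was at 52.2 and 51.9, MYL9, the regulatory light chain of smooth muscle myosin, at 51.5 and 48.6, and MYLK, the kinase that phosphorylates it, at 24.0 and 25.7. For TPM2, MYL9 and MYLK the values of the 2 libraries lay close together.

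Other genes outside the rule were higher in ACTG2 than in S100A4-high members. PCP4, a calmodulin-binding peptide, was at 14.4 for CT-LCG and 6.22 for FT-LCG, with 0 UMIs in S100A4-high members of either library. It had a UMI in 8 of 12 and 11 of 14 ACTG2 members, against 0 of 44 and 1 of 142 endothelial-selected cells. LOC102168428, an unnamed goat gene, was at 26.1 and 38, with 0 UMIs in S100A4-high members. RGS2, which damps signals from contraction receptors, was at 6.87 and 11.6, against 0.958 and 0.0997 in S100A4-high and 10.0 and 7.08 in the remaining members, where 18 of the 19 CT-LCG UMIs were in the deep cell. PDLIM4, a LIM domain protein of actin fibres, was at 8.93 and 6.51, and MUSTN1, a small nuclear protein of muscle and skeletal tissue, at 30.9 and 22.4, against 0 and 0 for PDLIM4 and 15.8 and 12 for MUSTN1 in S100A4-high members.

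The ACTG2 members also held epithelial genes. KRT8 had a UMI in 4 of 12 CT-LCG and 12 of 14 FT-LCG ACTG2 members, with levels of 4.12 and 18.2, against 0 and 0.199 in S100A4-high members. KRT18, the partner keratin of KRT8, was at 2.06 and 1.95, against 0 and 0 in S100A4-high members. COL17A1, a hemidesmosome collagen of basal cells, was at 6.18 and 5.35. KRT14, which took part in the split, was at 27.5 and 31.8, and KRT5 at 41.2 and 39.1. In endothelial-selected cells KRT14 was at 6.99 and 30.3 and KRT5 at 5.23 and 16.7. KRT1 and KRT10, keratins of suprabasal epidermis, were at 68.0 and 81.7 in CT-LCG but at 17.5 and 9.98 in FT-LCG. Endothelial-selected cells held KRT1 at 57.6 and 18.1 and KRT10 at 81.5 and 36.0, so these 2 keratins in ACTG2 members were near or below the level of cells that should lack them, or, for KRT1 in CT-LCG, a little above it. In FT-LCG 2 cells, chosen after their values were seen, held 207 of the 242 UMIs of KRT1 and 274 of the 440 of KRT14. Without them KRT1 was at 3.34, KRT10 at 5.25 and KRT14 at 15.8, each below the endothelial-selected cells, and KRT5 was at 43.0, above them.

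Between the libraries, the ACTG2 members differed in MYH11, CALD1 and KRT8, which were lower in CT-LCG. MYH11 was at 4.81 in CT-LCG, from 7 UMIs, and 39.5 in FT-LCG, a log2 ratio of -3.01 (counting interval -4.36 to -1.99). CALD1, the actin-binding caldesmon, was at 2.06, from 3 UMIs, and 43.4, a log2 ratio of -4.33 (-6.68 to -2.84). KRT8 had a log2 ratio of -2.12 (-3.60 to -1.0). The actins were higher in CT-LCG, with ACTG2 at 139 and 46.4 (log2 ratio 1.59, 1.35 to 1.82) and ACTA2 at 98.2 and 48.6 (1.01, 0.74 to 1.28). ACTA2, ACTG2 and MYH11 took part in the choice of members and ACTG2 in that of the group, and 3 UMIs are a higher level in a shallow cell than in a deep one. Their order between the libraries is therefore a description that is not independent of the rule and of depth.

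Depth also differed between the ACTG2 members of the libraries. The median ACTG2 member had 1290.5 UMIs in CT-LCG against 10129 in FT-LCG. The 3 FT-LCG ACTG2 members of under 1000 UMIs (935 to 974) had MYH11 at 24.3 (7 UMIs in 1 cell), CALD1 at 17.4 (5 UMIs), KRT8 at 6.95 (2 UMIs), ACTA2 at 62.5 and ACTG2 at 48.6. The 11 deeper ones had MYH11 at 39.8, CALD1 at 44.0, KRT8 at 18.5, ACTA2 at 48.3 and ACTG2 at 46.3. The intervals of the 3 cells, 9.78 to 50.1 for MYH11, 5.64 to 40.5 for CALD1 and 0.842 to 25.1 for KRT8, overlapped those of the deeper ones. They also overlapped those of CT-LCG, 1.93 to 9.91, 0.425 to 6.02 and 1.51 to 8.97. KRT1 was at 48.6 (26.6 to 81.6) in the 3 cells and 16.8 (14.7 to 19.2) in the deeper ones. KRT10 was at 59.1 (34.4 to 94.6) and 8.94 (7.42 to 10.7). For these 2 keratins the intervals did not overlap. The part of depth in the differences between the libraries was not tested.

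**Figure D4:**
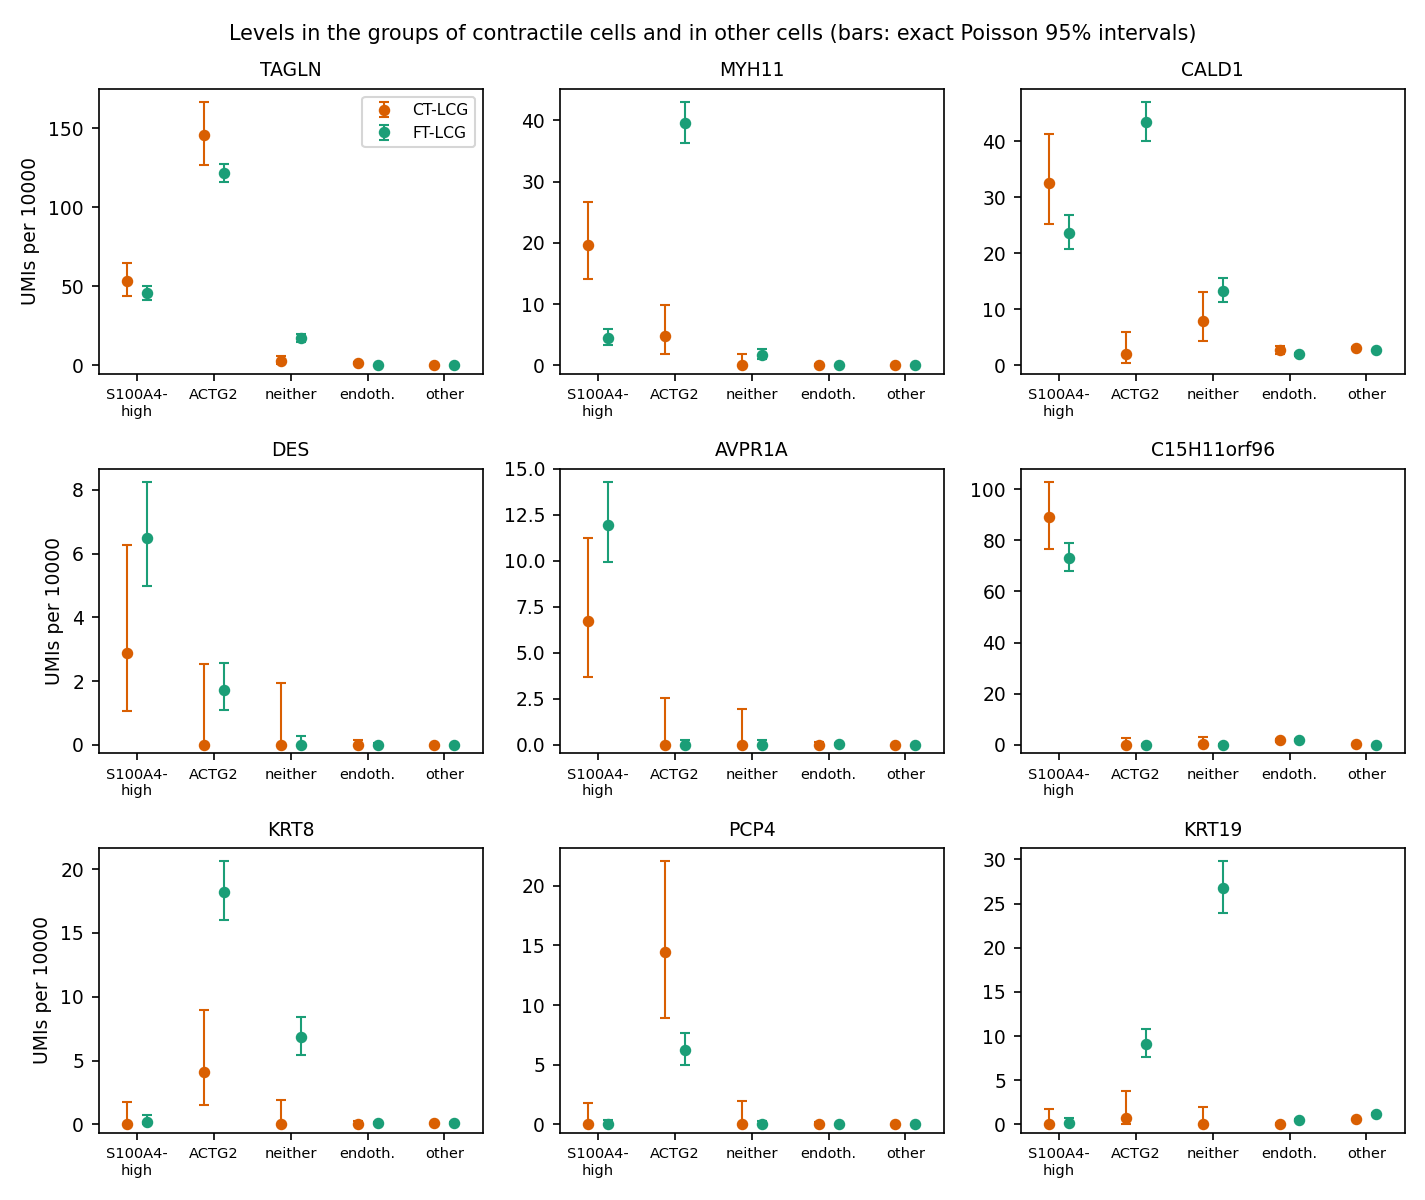
Levels (UMIs per 10000, linear axis from 0, bars for 95% Poisson intervals of counting error) of 9 genes in the S100A4-high, ACTG2 and remaining members, in cells selected by endothelial genes (endoth.) and in other kept cells (other), for each library. DES, AVPR1A and C15H11orf96 are highest in the S100A4-high members of both libraries, TAGLN, KRT8 and PCP4 in the ACTG2 members, and KRT19 in the remaining FT-LCG members, while MYH11, a gene of the rule, and CALD1 are higher in S100A4-high than in ACTG2 members in CT-LCG and lower in FT-LCG.

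The remaining members were mainly FT-LCG cells with few contractile transcripts. In the 18 FT-LCG cells ACTA2 was at 10.9, TAGLN at 17.4 and MYL9 at 4.5, with TPM2 at 0.804. DES and PLN had 0 UMIs. Of these cells, 10 had ACTA2 as the only rule gene detected, and 13 had a UMI of KRT8, which was at 6.83. KRT19, a keratin of outer root sheath and simple epithelium, was at 26.8 and had a UMI in 14 of the 18. CXCL14, a chemokine of epithelium, was at 38.6, GJB6, the connexin 30 gap junction protein, at 15, and LGR5, a receptor that marks follicle stem cells, at 1.77. In these FT-LCG cells KRT14 was at 51.1 and KRT5 at 57.8.

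In CT-LCG the remaining members were 2 cells. One was the deep cell described above, and the other held 27 UMIs of RGS5, 13 of WFDC1, 5 of HIGD1B and 3 of ACTA2. One FT-LCG cell among the ACTG2 members had 1 UMI of ACTG2 and 126 of KRT19, the only KRT19 in the ACTG2 members of FT-LCG. Asking for at least 2 UMIs of ACTG2 moved no group count by more than 1.5 times.

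Against all other kept cells, the epithelial members were compared over 743 genes with enough UMIs, of which 8.34% were at least 2-fold higher in both libraries and 2.96% at least 2-fold lower. The contractile apparatus, a list of 27 genes, had 16 with enough UMIs, and 14 of these were higher, with a median log2 ratio of 4.84 against 0.20 over all 743 genes. Without the 4 rule genes 10 of 12 were higher, with a median of 3.70. TAGLN was at 45.1 (117 without the deep cell) and 62.3 in epithelial members, against 0.0934 and 0.265 in other kept cells. TPM2 was at 16.9 and 17.7, MYL9 at 15.3 and 23.4, and MYLK at 8.45 and 9.64. Without the deep cell the CT-LCG levels were 43.7 for TPM2, 39.6 for MYL9 and 21.9 for MYLK, so that CT-LCG was above FT-LCG for these genes and for TAGLN. The list's summed level without the 4 rule genes was 197 and 218 in epithelial members of CT-LCG and FT-LCG, against 16.1 and 21.1 in other kept cells. CRYAB, a small heat shock protein of the list, made up 55.1 of the CT-LCG sum, all of it in the deep cell. Other genes of the list went the other way, with MYL6 at 16.1 in CT-LCG and 35.4 without that cell. The sum without the deep cell was not computed, so the order of the libraries in it is uncertain.

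For the non-epithelial members 938 genes were compared, of which 19.1% were higher and 3.62% lower. Of the contractile apparatus 17 of 18 genes were higher, with a median log2 ratio of 4.52 against 0.36 over all 938 genes, the 4 rule genes included. Without them 13 of 14 were higher, with a median of 4.06 and a summed level of 256 and 267. TAGLN was at 73.5 and 67.3, TPM2 at 32.2 and 34.1, and MYL9 at 22.7 and 25.6. Because the rule asked for contractile genes, the direction of the list's other members is a description and not independent of the choice of cells.

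Control of contraction was thinly measured. Of its 27 genes, which cover receptors, calcium channels and kinases, 3 had enough UMIs in epithelial members and 5 in non-epithelial members. Of these, 1 and 4 were higher, beside 8.34% and 19.1% of all genes compared. RGS2 was the 1 in epithelial members, with 18 of its 24 CT-LCG UMIs in the deep cell. EDNRA, the endothelin receptor of smooth muscle, was at 2.37 and 1.56 in non-epithelial members of CT-LCG and FT-LCG, against 0.0625 and 0.0973 in other kept cells. Among smooth muscle transcription factors, MYOCD, the coactivator myocardin, had 0 UMIs in members. There 1 of 2 compared genes, NR2F2, was higher in non-epithelial members, at 3.73 and 2.92, beside the same 19.1%. KLF4 was lower in non-epithelial members than in other kept cells, at log2 ratios of -1.60 and -1.59. Cells with KRT14 and KRT5 at 50 per 10000 or more made up 46.8% and 76.4% of all kept cells. KLF4 was still at 7.16 in CT-LCG members without the deep cell and 4.88 in FT-LCG members. A link of its level to the contractile state was not tested.

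Pericyte and vascular mural genes were found on the non-epithelial side. Of 14 measured genes, 6 had enough UMIs in non-epithelial members and 5 were higher, against 19.1% of all genes, with a median log2 ratio of 3.70, while 0 could be compared in epithelial members. GJA4, the connexin 37 of vessels, was 1 of the 5, with log2 ratios of 4.34 for CT-LCG and 3.00 for FT-LCG. Of the basement membrane and matrix genes, 6 of 6 compared were higher in non-epithelial members than in other kept cells (median log2 ratio 2.56), beside the same 19.1%. In epithelial members 2 of 2 were higher, beside 8.34%. For 1 of these 2, THBS1, the deep cell held 6 of the CT-LCG UMIs. The 2 UMIs left without it are under the minimum of 5 for a comparison. Between the subsets themselves 1 of 6 was lower in epithelial members of both libraries, against 4.33% of all 1755 genes compared. COL4A1, a chain of basement membrane collagen, was at 9.15 and 2.82 in non-epithelial members, against 0.171 and 0.264. SPARCL1, a matrix glycoprotein, was at 12.9 and 5.42.

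Gland genes were few. The myoepithelial and basal gland list shared ACTA2, MYH11 and CNN1 with the rule. Of its 8 compared genes 4 were higher in epithelial members, beside 8.34% of all genes compared. These were the 3 shared genes and TP63, the regulator of basal epithelium, at 2.01 (from 5 UMIs) and 1.64. Leaving out the 3 shared genes, 1 of 5 was higher and 1 lower. Without the deep cell TP63 was at 3.12 in CT-LCG from 3 UMIs, under the minimum of 5 for a comparison. KRT14, which split the members, was lower than in other kept cells, where it was at 49.8 and 146. Without the deep cell its CT-LCG level was 34.4, a log2 ratio of -0.53, so the 2-fold limit was no longer met there. KRT8 was the 1 gland luminal gene of 3 that was higher, and the same 8.34% stands beside this list and the next. SFRP1, a Wnt antagonist of the outer root sheath, was the 1 of 3 outer root sheath genes that was higher, with log2 ratios of 2.94 and 1.5, though its CT-LCG value came from 6 UMIs, 4 of them in the deep cell. Suprabasal epidermal genes were lower, 6 of 7 in epithelial (median -2.33) and 6 of 6 in non-epithelial members (median -3.66). Of all genes compared, 2.96% and 3.62% were lower.

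Endothelial, immune and striated muscle markers were near 0. Of the endothelial, immune, Schwann and melanocyte, and striated muscle lists, 0 genes had enough UMIs to compare in either subset. The endothelial list of 13 genes, 3 of which the rule limited, summed to 0.402 and 0.467 in epithelial and to 1.69 and 0.834 in non-epithelial members. PECAM1 was the only one with a UMI in the epithelial CT-LCG members, and ESAM led in the others. The immune list summed to 0.805 and 0.526, and to 0.678 and 0.209. The striated muscle list summed to 0 in CT-LCG and to 0.175 and 0.261 in FT-LCG. Of the fibroblast list, 2 genes had enough UMIs in non-epithelial members and both were higher, beside 19.1% of all 938 genes compared. They were DCN, a small proteoglycan, and COL12A1, a fibril-associated collagen. That list summed to 7.45 and 10.7 there, against 2.75 and 2.75 in other kept cells. The hair shaft and inner root sheath list summed to 16.6 in CT-LCG members and 2.89 in FT-LCG ones, against 8.52 and 24.8, and reached 40.5 in the CT-LCG ACTG2 members, led by TCHH. Immediate early genes, which dissociation induces, summed to 453 in CT-LCG epithelial members and 126 in FT-LCG ones, against 151 and 154 in non-epithelial members and 122 and 133 in other kept cells. In the CT-LCG epithelial members 1010 of their 1126 UMIs were in the deep cell, and without it the sum was 121, level with other kept cells. JUNB led them there, at 111, and at 30.2 without that cell.

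Between the epithelial and non-epithelial members, with KRT14 and KRT5 left out, 1755 genes were compared, of which 2.79% were at least 2-fold higher in the epithelial members of both libraries and 4.33% lower. None of the 19 compared contractile apparatus genes, the 4 rule genes included, was past 2-fold in both libraries, and their median log2 ratio was -0.35, against -0.07 over all genes. Of the pericyte and mural genes 4 of 6 were lower. C15H11orf96 had log2 ratios of -6.97 and -3.35 in CT-LCG and FT-LCG, and S100A4 of -5.07 and -2.43. WFDC1, RGS5, HIGD1B, CRIP1, COL6A1, LOC102188618 and LOC102179296 were also among the 10 that were lowest.

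Several of the leading genes higher in epithelial members rested on 1 cell. Among the 10 leading ones were LOC102184252, ATP6V1B1, CLDN4, KRT6A, SPP1, RND1, RHOV, ITPKC and HBP1. In CT-LCG the deep cell held 28 of the 29 UMIs of CLDN4, a tight junction protein, and 27 of 27 of KRT6A, a keratin of the outer root sheath. Without that cell the number of genes higher in both libraries was 30 in place of 49.

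More genes were past 2-fold between the S100A4 and ACTG2 groups than across the keratin split. Of 1753 genes, 6.79% were at least 2-fold higher in the ACTG2 members of both libraries than in the S100A4-high members, and 9.13% were lower. Among the contractile apparatus genes, leaving out the 4 rule genes, 4 of 15 were higher and 2 lower, with a median log2 ratio of 0.63 against -0.09 over all genes. Among pericyte and mural genes 5 of 6 were lower (median -4.87). Among myoepithelial and basal gland genes, leaving out the 3 that the rule read, 2 of 4 were higher, COL17A1 and TP63. In CT-LCG the TP63 of the ACTG2 members was 3 UMIs in 1 of 12 cells, so its place there rests on that cell. Other lists moved as well. Suprabasal epidermal genes were higher in ACTG2 members for 4 of 7 (median 1.49) and outer root sheath genes for 2 of 3. KRT1 and KRT10 of the first list were at similar or higher levels in endothelial-selected cells, as given above. In FT-LCG 2 cells held 207 of the 242 KRT1 UMIs. Of the second list, the CT-LCG members other than the deep cell held 2 UMIs of SFRP1, 4 of SOX9 and 0 of KRT6A. Of the immediate early genes 4 of 10 were lower. These summed to 85.9 and 91.4 in ACTG2 members of CT-LCG and FT-LCG, against 169 and 179 in S100A4-high members. The members were grouped by 2 of the genes compared, so these counts are descriptions.

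Over all members, 3048 genes with at least 20 UMIs in both libraries together were compared between the types. Of these, 13.3% were at least 2-fold higher in CT-LCG and 20.0% at least 2-fold lower. No minimum was set in each library, so counting error in the shallower CT-LCG members enters these shares. TAGLN had a log2 ratio of CT-LCG over FT-LCG of -0.10 (-0.27 to 0.07) and CNN1 of -0.04 (-0.41 to 0.31), both including 0. ACTA2 was higher in CT-LCG, at 0.49 (0.27 to 0.71), and so was ACTG2, at 1.12 (0.90 to 1.35). MYH11 was lower in CT-LCG, at -0.93 (-1.39 to -0.51), and so was KRT8, at -2.97 (-4.54 to -1.94). Without the deep cell TAGLN was at 84.1 against 64.9, CNN1 at 17.1 against 14.2, and MYH11 at 12.3 against 16.9. These intervals hold counting error between 2 libraries, not variation between goats. For the 4 genes of the rule the order is also tied to the choice of members, since the minimum of 3 UMIs asks for a higher level in shallower cells, and the median member held 92.4 contractile UMIs per 10000 in CT-LCG against 25.8 for FT-LCG.

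The genes farthest apart on the FT-LCG side included those of the remaining members described above, of which CT-LCG had 2. KRT19 was at 0.18 for CT-LCG and 12.7 for FT-LCG, CXCL14 at 0.37 and 18.3, GJB6 at 0 and 5.51, LOC102180443 at 0.18 and 11.8, and LOC102175889 at 0 and 9.89. In the 18 remaining FT-LCG members KRT19, CXCL14 and GJB6 were at 26.8, 38.6 and 15. Some of these genes were also lower in the other kept cells of CT-LCG, where the log2 ratio of CT-LCG to FT-LCG was -5.85 for LOC102180443, -2.20 for GJB6, -1.65 for CXCL14, -0.91 for KRT19 and -0.13 for LOC102175889. On the CT-LCG side, EGR4 had 37 UMIs against 0, all in the deep cell, and RHOV, HBEGF and ARC followed, with 41, 30 and 35 UMIs in that cell. S100A7A, an epidermal calcium-binding protein, was at 15.5 and 0.579, and its log2 ratio in the other kept cells was 2.14.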

How the data were processed

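Liaoning cashmere goat skin was dissociated, passed through dead cell removal and measured with 10x Chromium 3' chemistry. Per the labels and methods, Cell Ranger made the UMI counts, which the authors deposited without normalization as 1 matrix of 27137 features by 17299 barcodes. They kept 13051 cells, all with more than 500 detected genes, stating limits of 500 detected genes and 10% mitochondrial coverage, the second of which could not be checked since 0 mitochondrial features were in the matrix. The submitters' processing notes name Seurat 3.1.1 and the human and mouse builds GRCh38 and GRCm38, and the goat build was not given in the sources used here. Of the features, 27103 matched a RefSeq gene table, used for names only.

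Fibre types came from the deposited cell table. The members and gene lists were chosen with earlier results of these data known. Counts were summed over cells, scaled per 10000 UMIs and compared within each library as log2 ratios after adding 0.1 to both levels. Against other kept cells, genes with at least 20 UMIs of a subset in both libraries together and 5 in each were compared. Between subsets or groups this minimum was applied to all members together, so either side could fall below it. In these comparisons 2-fold in the same direction in both libraries was the limit. Between the types, 20 UMIs in both libraries together were asked for, with no minimum in each, and 2-fold was the limit. Poisson and Clopper-Pearson intervals were at 95%; at a count of 0 the upper bound is that of the exact Poisson interval. No doublet caller was run, and free RNA was subtracted only in an alternative. Endothelial-selected cells had at least 3 UMIs of PECAM1, PLVAP and VWF, and collagen-selected cells at least 50 per 10000 of the 3 collagens, both with under 3 UMIs of the contractile genes.

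Named genes were the 5 markers, the 15 genes farthest from other kept cells, 10 each way between subsets and 5 between types, and the leading genes of each list, of which a few are not reported here. Genes of the S100A4 and ACTG2 groups were chosen after their values were seen. The ratio step was tested on simulated data. Python 3.11.15, numpy 2.4.6, scipy 1.17.1, pandas 2.3.3 and matplotlib 3.10.9 were used.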

Additional observations from a re-analysis of the deposited data

Results flagged for a closer look

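Barcodes that the authors did not keep also met the rule for contractile cells, 17 from CT-LCG and 3 from FT-LCG, with median depths of 718 and 583 UMIs. TAGLN was at 81.8 per 10000 UMIs in these CT-LCG barcodes and 48.7 in the FT-LCG ones, against 0.482 and 0.824 in the other 2642 and 1586 barcodes that were not kept. With them the members were 36 of 6102 barcodes in CT-LCG (0.590%, 0.414 to 0.816) and 54 of 11197 in FT-LCG (0.482%, 0.362 to 0.629). Of the 17, 10 were epithelial and 7 non-epithelial.

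For 2 genes the ratio of epithelial to non-epithelial members went opposite ways in the libraries, and the difference was not tested. EFHD2, a calcium-binding protein, had a log2 ratio of 2.25 in CT-LCG and -1.56 in FT-LCG. FBXO32, a ubiquitin ligase subunit of muscle, had log2 ratios of 3.19 and -0.51. The deepest CT-LCG cell held 22 of 25 and 23 of 25 of their CT-LCG epithelial UMIs, and without it the levels were 3.12 and 2.08 per 10000 in place of 10.1 for each.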

How the results depend on the processing

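No paired analysis was possible because each fibre type had 1 library and no result came from a test. Counts of genes past 2-fold depended on the limits below, and levels of CT-LCG epithelial members on 1 cell that held 61.4% of their UMIs. Where no cause is named below, the cause was not tested. No main result reversed. Requiring 2 UMIs of the 4 genes, 5 UMIs of them, collagen under 20 per 10000 or at least 2 UMIs of ACTG2 moved none of them. With 10% of the library's mean profile subtracted as free RNA, 9 of 32 results moved, and with means over cells in place of sums 17 of 32, all of them log2 ratios of single genes, with 0 reversed.

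The 62 genes higher in epithelial members became 40 with at least 10 per 10000 of the 4 genes, 17 with cells thinned to 1000 UMIs, 14 and 107 with the keratin split at 100 and 25 per 10000, 367 with no minimum of UMIs, 39 without the 5% deepest members, 39 without the deepest CT-LCG cell, and 383 to 921 with 1 library alone. The 179 higher in non-epithelial members became 26 thinned, 628 with no minimum and 395 to 1145 with 1 library. The 49 higher in epithelial than non-epithelial members became 26 with 0.5 added, 31 at 10 per 10000, 1 thinned, 31 and 118 with the split at 100 and 25, 319 with no minimum, 24 without the deepest 5%, 30 without the deepest CT-LCG cell and 484 to 695 with 1 library. The 76 lower became 5 thinned, 138 and 118 with the split at 100 and 25, 376 with no minimum and 499 to 677 with 1 library. The 404 higher in CT-LCG became 251 with 0.5 added, 251 at 10 per 10000, 27 thinned, 1913 with no minimum and 262 without the deepest 5%. The 611 lower became 324 with 0.5 added, 37 thinned and 2657 with no minimum.

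The contractile median of 4.84 in epithelial members became 6.96 at 10 per 10000, 7.29 thinned, 7.32 with the split at 100, 3.07 with no minimum, 6.61 without the deepest 5%, 6.69 without the deepest CT-LCG cell and 5.80 and 3.55 in CT-LCG and FT-LCG alone. The non-epithelial 4.52 became 3.74 with 0.5 added, 7.48 thinned, 4.95 with the split at 25, 3.26 with no minimum and 4.77 and 3.74 in CT-LCG and FT-LCG alone.

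The 9 epithelial CT-LCG members became 19 with all barcodes, and 2 and 15 with the split at 100 and 25. The 25 of FT-LCG became 10 thinned and 16 at 100. The 10 non-epithelial CT-LCG members became 17 with all barcodes, 6 thinned, 17 at 100 and 4 at 25, and the 26 of FT-LCG 12 thinned and 14 at 25. With S100A4 at 40 per 10000 or more, the 5 S100A4-high CT-LCG members became 3 and the 2 remaining ones 4. Settings with all barcodes, without the deepest CT-LCG cell, without 2 FT-LCG cells high in KRT1, and of S100A4 or ACTG2 were chosen after seeing the data.

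Of the single genes, the log2 ratio of KRT8 to other kept cells in non-epithelial CT-LCG members was 1.82 with 2 UMIs of the 4 genes and 1.78 with the split at 100, and that of MYH11 in epithelial CT-LCG members was -0.0559 with the split at 100, each opposite in sign to the value reported.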
